A study of Erythranthe pardalis x Erythranthe guttata and Erythranthe pardalis with 20 samples.

Results

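The genes described here were high in unfertilized ovules, lower in young seeds and high again in seeds 8 days after pollination (DAP). They were chosen by their measured levels in CPM, a gene's count scaled to a fixed total count per library. A gene had to average at least 5 CPM in ovules and at 8 DAP and more at 8 DAP than at 6 DAP. The smaller of the ovule and 8 DAP means, plus 0.5, was then divided by the largest of the 2, 4 and 6 DAP means, plus 0.5. The 150 genes with the largest ratio, called members below, came from 4083 genes that met the level conditions and 28140 genes counted in all. Their drop between ovules and 8 DAP is therefore how they were found and was not tested.

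RNA was sequenced from whole ovules and whole seeds of monkeyflowers (Mimulus). The 0 DAP group held 5 libraries of unpollinated ovules from SEC39, an inbred line of M. pardalis. Seeds at 2, 4, 6 and 8 DAP (4, 3, 4 and 4 libraries) were hybrids between SEC39 mothers and CSS4 fathers, an inbred line of M. guttatus, so ovules differed from every seed group in paternal genome as well as in age. Ovule replicates 3 to 5 were pooled over several mothers, while the study's methods give 1 mother per seed pool and the labels describe fruits of different plants. Each library mixes tissues (seed coat, endosperm and embryo in a seed), and the methods name some carry-over of placenta from the fruit. In such bulk RNA, fewer cells of a type and less RNA per cell cannot be told apart. The study took replicates mostly from the same few mothers, so p-values measure the spread between these pools.

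An ovule consists mainly of maternal tissue around the embryo sac, part of which becomes the seed coat. After fertilization the zygote divides into an embryo and the central cell founds the endosperm, a nutritive tissue, while the future seed coat expands and differentiates. From the globular to the heart stage the embryo grows by cell division, its surface layer and cotyledons are laid down, and in many species its plastids turn green, before storage oil and protein accumulate. A gene high in ovules and again in older seeds can thus be expressed in unlike tissues at either end, and whole-seed RNA does not say in which.

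Library totals ran from 7588155 to 16529554 counts, with a median of 13118699. Marker genes, named by their most similar Arabidopsis thaliana homologue, went with the labels in part. The 5 egg cell markers (EC1 genes) summed to between 49.6 and 125 normalized CPM in ovules and to at most 1.38 at 8 DAP. The 8 seed maturation markers (oleosins, ABI3 and LEC1-LIKE) summed to between 2.18 and 3.1 in ovules and to between 968 and 6510 at 8 DAP. The 7 endosperm markers (AGL62 and ZHOUPI) were low throughout, at 16.1 or less outside 2 DAP. They summed to between 3.43 and 8.83 in unfertilized ovules and between 7.12 and 8.23 at 4 DAP, so they did not separate these groups. The AGL62 homologue Migut.B00480 was highest in ovules (mean 5.49). The 6 seed coat flavonoid markers summed to between 63.1 and 72.4 in ovules and to between 3270 and 3640 at 8 DAP, but most of the 8 DAP sum was the gene Migut.D01697 (mean 2830). By gene, 2 of the 6 were called higher at 8 DAP and 3 higher in ovules. The 3 secondary wall cellulose synthases were highest at 6 DAP, with sums of 760 to 1110. However, 2 DAP replicate 3 summed to 561, against 2.49, 52.4 and 33.7 in 2 DAP replicates 1, 2 and 4. That was above every 8 DAP library (113 to 279), and the cause was not tested. No member belongs to any of these marker lists.

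Together the members took between 0.895% and 1.74% of all counts in ovules and between 1.33% and 1.67% in 8 DAP seeds. In the seeds between, the share was 0.379% to 0.591% at 2 DAP, 0.377% to 0.458% at 4 DAP and 0.438% to 0.601% at 6 DAP. The median member averaged 26.5 CPM in ovules, then 7.16, 5.62, 7.12 and 20.7 in the seed groups in order of age. Most members stayed measurable between ovules and 8 DAP, and only 4 had a count of 0 in any library at 2, 4 or 6 DAP. The ratio ran from 8.13 down to 1.63 with a median of 1.88, at least 5 in 7 members, at least 3 in 15 and at least 2 in 68. No gap marked the end of the list. The last members were Migut.H02347 (1.6299) and Migut.D00068 (1.6276), and the next genes, Migut.L01818 (1.6267) and Migut.I00735 (1.6251), were left out.

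For values of single libraries and for tests, CPM was rescaled by the trimmed mean of M values (TMM), which sets the bulk of genes level between libraries and is called normalized CPM below. The scale matters here. The TMM factors were 0.941 to 1.5 in ovules and 0.731 to 0.866 at 8 DAP, so a member's 8 DAP level relative to ovules is higher in normalized CPM than in CPM. The 8 DAP mean exceeded the ovule mean in 63 members in CPM and in 112 in normalized CPM. On both scales the ovule and 8 DAP means of all 150 members lay above the other ages.

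**Figure D1:**
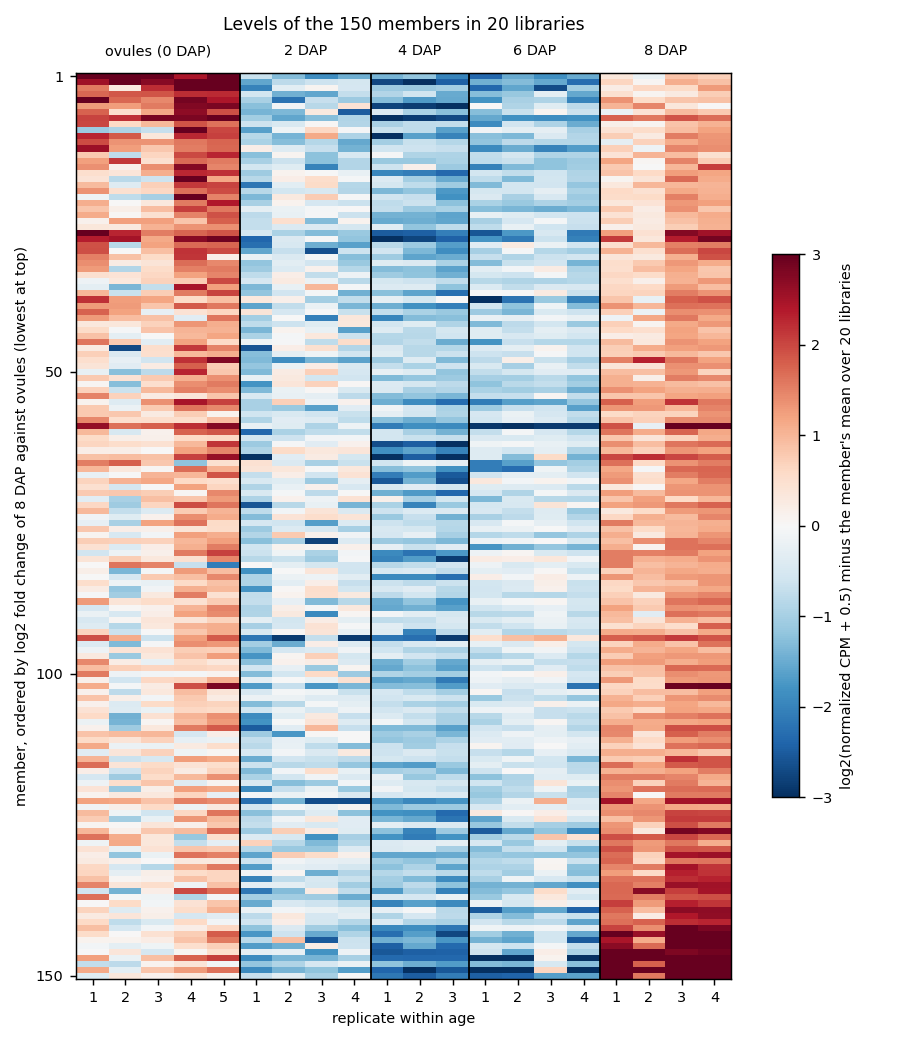
Heat map of the 150 members (rows, ordered by the log2 fold change of 8 DAP against ovules) in 20 libraries (columns, grouped by age), coloured by log2(normalized CPM + 0.5) minus the member's own mean. Ovule and 8 DAP columns are mostly red and the 2, 4 and 6 DAP columns mostly blue, the 4 DAP columns most evenly so, and ovule replicates 1 to 3 are paler than replicates 4 and 5.

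Libraries overlapped in most members. In 57 members every ovule and 8 DAP library was above every 2, 4 and 6 DAP library in CPM, and in 41 in normalized CPM, with 34 on both scales. Over all 20242 genes with enough counts to test, 0.568% did so in CPM and 0.509% in normalized CPM, but the rule chose for this difference and the counts describe the spread only. The rule was also repeated under other settings. Taken on normalized CPM it kept 92 of the 150 members, and taken on the libraries numbered 1 to 14 alone it kept 96. Those libraries hold 2 of the ovule and 1 of the 2 DAP libraries, and all later ones. Within them the ratio stayed above 1 in 143 members and at or above 1.63 in 100. Leaving out any single library kept 129 to 145, with 82 members found every time, and 43 members were found under every setting.

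Among the 12 members with the largest ratio, a description of the homologue was at hand for 4. Migut.M00516 is most like PROTODERMAL FACTOR 1 (PDF1), a proline-rich cell wall protein of the shoot surface layer in A. thaliana. Its ovule libraries read 46.5, 23.1, 25.4, 34.3 and 49.9 normalized CPM. At 2 DAP it read 5.96, 5.37, 3.47 and 6.22, at 4 DAP 1.24, 1.59 and 1.51, and at 6 DAP 0.492, 0.357, 0.528 and 0.523. At 8 DAP it was back at 27.5, 5.85, 71.1 and 74.8. The PDF1 homologue thus had its lowest values at 6 DAP, and 8 DAP replicate 2 stayed within the 2 DAP range.

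Migut.G00629 and Migut.G00627 stand next but 1 to each other in the order of gene identifiers, have no homologue in the tables at hand and moved alike. Migut.G00629, the member with the largest ratio (8.13), read 25.9, 9.26, 20.7, 38.2 and 46.7 normalized CPM in ovules, 0.246, 0.285, 11.7 and 0.785 at 6 DAP and 259, 178, 281 and 266 at 8 DAP. Migut.G00627 read 65.9, 24.1, 53.2, 73.3 and 93.9 in ovules, 0.903, 1.07, 46.7 and 3.05 at 6 DAP and 1060, 740, 1400 and 1380 at 8 DAP. In both genes 6 DAP replicate 3 stood far above the other 6 DAP libraries and overlapped the ovules, and every 8 DAP library exceeded every ovule library.

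Migut.G00296 is most like an aspartyl protease and averaged 40.3 CPM in ovules, 0.905 at 4 DAP and 19 at 8 DAP. Migut.I00910, of an uncharacterized family (UPF0497), averaged 48.8 CPM in ovules, 0.356 at 4 DAP and 15.2 at 8 DAP. Migut.M01490, which has a homologue without a description, averaged 35.0 CPM in ovules, 0.344 at 4 DAP and 18.8 at 8 DAP. All 3 were lowest at 4 DAP, and in normalized CPM their ovule and 8 DAP libraries stayed clear of the other ages. Of the rest, Migut.F00063 averaged 46.9 CPM in ovules and 159 at 8 DAP, and Migut.N00911 115 and 106. Migut.F00734 (9.68 and 10.9), Migut.L01600 (32.0 and 28.0) and Migut.I00642 (23.9 and 16) came back to near their ovule means, and the flavonol synthase gene among the 12 is described with the ovule-high genes.

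**Figure D2:**
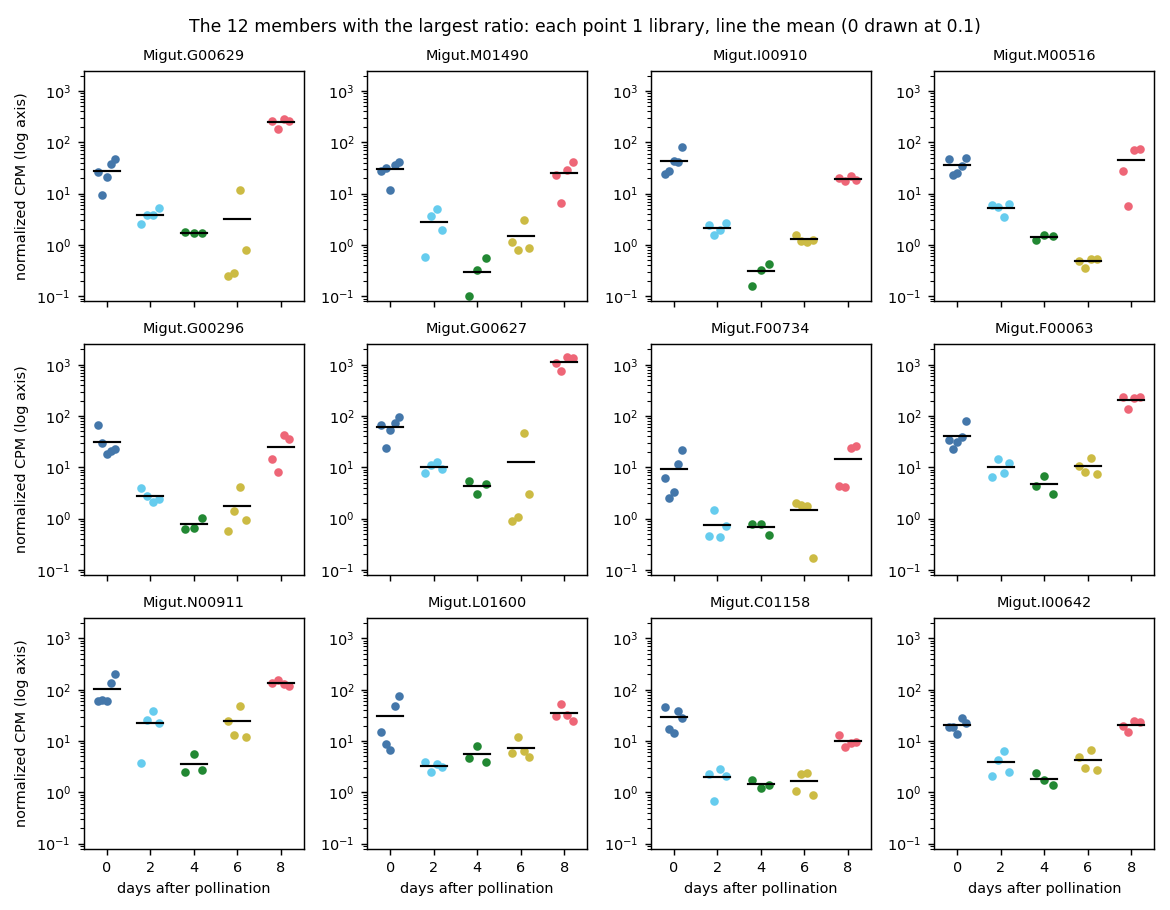
Normalized CPM (log axis) of the 12 members with the largest ratio against age, with 1 point per library and a line at each mean. Migut.G00629 and Migut.G00627 show 1 high library at 6 DAP and their highest points at 8 DAP, and Migut.M00516 shows 1 low library at 8 DAP.

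The rule did not use the sign of the difference between ovules and 8 DAP. It takes the smaller of their means in CPM, however, and so favours genes with like CPM at both ages. Between ovules and 8 DAP, edgeR's quasi-likelihood test over all 20242 genes (Benjamini-Hochberg adjusted p under 0.01, all 150 members tested) called 25 members higher at 8 DAP, where 18.1% of all genes were, and 6 higher in ovules, where 16.7% of all genes were. The members' 25 and 6 are 16.7% and 4.0% of the list. The median log2 fold change of 8 DAP against ovules was 0.47 over the members and -0.10 over all genes tested, and it lay between -1 and 1 in 110 members. Ovule and 8 DAP libraries did not overlap in 27 members, against 34.6% of all genes tested. The rule asks for high levels at both ages, which limits how far they can differ in a member. The choice in CPM thus shapes these counts and the median, which describe the members and do not test them against all genes. With library number (1 to 14 or 15 to 20) as a covariate, 60 members (40.0%) were called higher at 8 DAP, against 24.1% of all genes. At a threshold of 0.05 the shares were 28.0% and 23.5%, and with the mother plant as a block 16% and 14.6%. Whether the members' share lay below or above that of all genes depended on these settings.

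The direction counts depended on the scaling. With library totals in place of TMM, chosen as an alternative after the factors were seen, 12 members were called higher at 8 DAP and 16 higher in ovules, while 10.8% and 30.9% of all genes were. The median log2 fold change over all genes then was -0.73 and that of the members -0.09. A change of scaling shifts all genes by nearly the same amount, so the gap between members and the median gene had to be alike on both scales. The rule's demand for a high 8 DAP level enters that gap. No call reversed. The 12 were all among the 25, and all 6 ovule-high members were called again.

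The largest rises passed 8-fold. Migut.G00820, with no homologue at hand, read 3.32, 5.79, 4.93, 5.62 and 4.76 normalized CPM in ovules and 126, 14.2, 159 and 163 at 8 DAP (log2 fold change 4.56 ± 0.48 SE, adjusted p = 1.96e-07). Its ovule libraries agreed closely, and 8 DAP replicate 2 was low but above all of them. Its 2 DAP libraries, at 2.54, 3.45, 1.99 and 4.42, reached into the ovule range. Migut.D02452 is most like a receptor family that returns escaped proteins to the endoplasmic reticulum. It read 7.4, 7.16, 13.7, 16.9 and 12.1 in ovules and 130, 45.6, 175 and 182 at 8 DAP (log2 fold change 3.54 ± 0.37, adjusted p = 1.38e-07). Here too the 2 DAP libraries (5.49, 6.61, 8.92 and 11.3) overlapped the ovules.

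Migut.N00383 read 8.07, 10.5, 5.54, 8.38 and 11.7 in ovules and 88.2, 82.7, 59.2 and 63.4 at 8 DAP (log2 fold change 3.05 ± 0.35, adjusted p = 6.42e-07). Its 2 DAP libraries (6.63, 6.9, 1.99 and 7.21) and 6 DAP replicate 3 (9.33) overlapped the ovules. Unlike the other large rises, Migut.N00383 was not lowest in 8 DAP replicate 2 among the 8 DAP libraries. The neighbours Migut.G00627 and Migut.G00629 rose by 4.21 ± 0.79 (adjusted p = 0.000199) and 3.13 ± 0.68 (adjusted p = 0.000759) on the log2 scale. With the mother plant as a block these were 4.31 and 3.59, and both calls were lost (adjusted p = 0.0186 and 0.0176). Of the 25 members higher at 8 DAP, 16 had no overlap between ovule and 8 DAP libraries and 7 had a homologue.

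The called homologues on the 8 DAP side included both thaumatin-like members, relatives of antifungal pathogenesis-related proteins. Migut.A01135 read 97.7, 44.4, 49.6, 31.6 and 63.4 normalized CPM in ovules, 9.33 to 12.6 at 6 DAP and 115, 99.3, 211 and 199 at 8 DAP (log2 fold change 1.45 ± 0.29, adjusted p = 0.000321). Migut.D01556 read 29.1, 13.9, 20.1, 26.9 and 38.3 in ovules, 2.79 to 5.9 at 6 DAP and 63.4, 35.1, 121 and 120 at 8 DAP (log2 fold change 1.73 ± 0.34, adjusted p = 0.00028). Migut.A01135 lost its call with library totals (adjusted p = 0.0601) and with the mother plant as a block (adjusted p = 0.0195). Migut.D01556 kept its call under every setting run. Both genes reached their lowest level at 6 DAP, in contrast to the 4 DAP low of most members in normalized CPM. The phospholipase Migut.D01066 (PLDALPHA2 homologue, a membrane lipid hydrolase) rose by 1.41 ± 0.37 on the log2 scale and Migut.D02322, a relative of lecithin:cholesterol acyltransferases, by 1.04 ± 0.26 (adjusted p = 0.00392 and 0.00228). Both calls were lost without 8 DAP replicate 3 or 4 (adjusted p = 0.0112 to 0.0254), and the phospholipase's also without ovule replicate 2 or 3 (adjusted p = 0.011 and 0.0104). Both were lost as well with library totals (adjusted p = 0.107 and 0.269) and with the mother plant as a block (adjusted p = 0.0399 and 0.0186).

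All 6 members higher in ovules had a homologue. Migut.F00821 is most like GIF1, also named ANGUSTIFOLIA3, a transcriptional coactivator that promotes cell proliferation in young organs of A. thaliana. It read 60.5, 72.7, 55.0, 38.6 and 81.2 normalized CPM in ovules, at most 3.99 at 2, 4 and 6 DAP, and 8.48, 5.76, 12.4 and 11.2 at 8 DAP (log2 fold change -2.70 ± 0.33, adjusted p = 1.28e-06). GIF1 thus regained only a small part of its ovule level, though in normalized CPM every 8 DAP library was above every library of the ages between. In CPM 8 DAP replicate 2 (4.99) was below 2 DAP replicate 1 (5.3).

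Among the 4 transport members, 2 were called higher in ovules, while of the 154 transport genes tested 41 were called higher in ovules and 55 higher at 8 DAP. Migut.H00926, an amino acid transporter homologue, read 83.1, 115, 94.1, 147 and 232 in ovules, 1.19 to 2.12 at 4 DAP and 21.8, 14.4, 30.0 and 25.8 at 8 DAP (log2 fold change -2.54 ± 0.33, adjusted p = 2.95e-06). Migut.A00217, most like TIP4;1, a water channel of the vacuole membrane, read 25.8, 10.4, 40.8, 104 and 85.7 in ovules and 9.85, 13.1, 12.8 and 21.2 at 8 DAP (log2 fold change -1.90 ± 0.55, adjusted p = 0.00714). Its ovule replicate 2 fell inside the 8 DAP range, and the call was lost without ovule replicate 4 or 5 or 8 DAP replicate 1, 2 or 3 (adjusted p = 0.0178 to 0.0269). The ammonium transporter homologue Migut.G00590 (AMT1;1) had a log2 fold change of -0.94 ± 0.33 (adjusted p = 0.0237) and the efflux carrier Migut.J01585 (MATE family) one of 0.24 ± 0.32 (adjusted p = 0.56), and neither passed the test.

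Migut.C01158 is most like FLS1, the enzyme that makes flavonols from dihydroflavonols. It read 45.8, 17.5, 14.4, 39.2 and 28.6 in ovules, 2.86 or less at 2, 4 and 6 DAP and 13.3, 7.62, 9.23 and 9.52 at 8 DAP (log2 fold change -1.55 ± 0.39, adjusted p = 0.00264). Of the 27 flavonoid and phenylpropanoid genes tested, 15 were called higher at 8 DAP and 4 higher in ovules. Migut.B01134, a leucine-rich repeat kinase homologue with one of the most even sets of ovule values (21.9, 24.2, 24.7, 31.1 and 31.3), read 9.03, 6.65, 7.64 and 10.8 at 8 DAP (log2 fold change -1.64 ± 0.32, adjusted p = 0.000255). Migut.I00910 had a log2 fold change of -1.14 ± 0.30 (adjusted p = 0.0033). Without 8 DAP replicate 2 the flavonol synthase call was lost (adjusted p = 0.0118). Migut.I00910 lost its call without ovule replicate 5, 8 DAP replicate 2 or 8 DAP replicate 4 (adjusted p = 0.0119, 0.0125 and 0.0106). With the mother plant as a block, 2 of the 6 calls were kept, those of the GIF1 and amino acid transporter homologues. The log2 fold change of the TIP4;1 homologue was then -0.66 and that of Migut.I00910 -0.24 (adjusted p = 0.362 and 0.468), while the flavonol synthase and the kinase stayed near their values (adjusted p = 0.0106 and 0.0119).

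**Figure D3:**
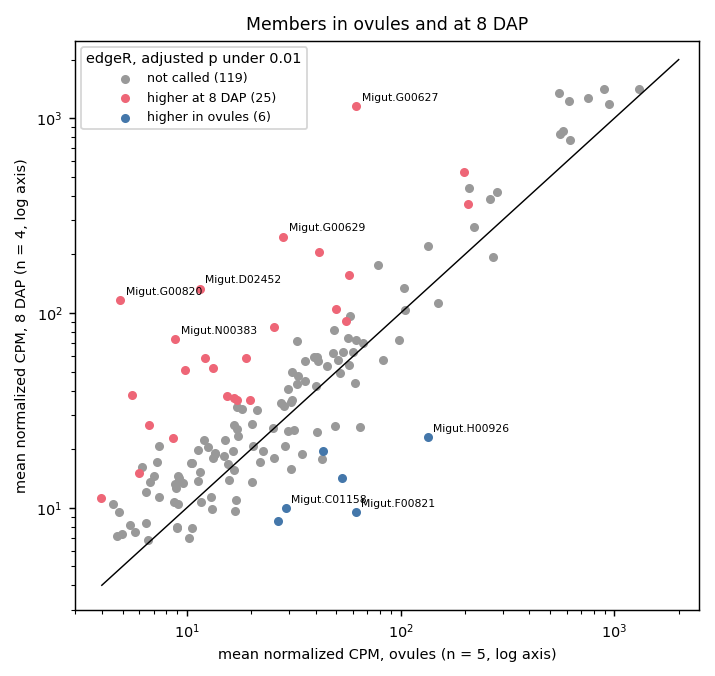
Mean normalized CPM of each member at 8 DAP (n = 4 libraries) against ovules (n = 5), both on log axes, with the line of equal levels and colours for the edgeR call at an adjusted p under 0.01. The 25 red points above the line are higher at 8 DAP, the 6 blue points below it higher in ovules, and most members lie near or somewhat above the line.

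The low between ovules and 8 DAP was most often deepest at 4 DAP. In normalized CPM 97 of the 150 members were lowest at 4 DAP, 37 at 6 DAP and 16 at 2 DAP, whereas the shares of all genes tested were 30.0%, 35.5% and 34.5%. In CPM the counts were 67, 45 and 38. The shares of all genes were not computed on that scale, so these counts cannot be set against a background. The TMM factors were 1.14 to 1.2 at 4 DAP, 0.716 to 0.86 in 2 DAP replicates 2 to 4 and 1.33 in 2 DAP replicate 1. Those replicates 2 to 4 had library numbers within 15 to 20, while replicate 1 and all 4 DAP libraries lay within 1 to 14. Summed normalized CPM of the members was 2860 in 2 DAP replicate 1, below the 3900, 3560 and 3140 at 4 DAP. In 2 DAP replicates 2 to 4 it was 6870, 8160 and 5350. Age and library number cannot be fully told apart between 2 and 4 DAP. The rule used only the largest of the 3 means, not their order. From 4 to 6 DAP, edgeR called 17 members higher at 6 DAP, where 5.22% of all genes were, and 1 lower, where 2.12% of all genes were. The median log2 fold change was 0.36 over members and -0.00 over all genes tested. Leaving out any of the 3 libraries at 4 DAP cut the calls from 18 to 7 or 8, and the shares of all genes called higher to between 2.5% and 2.69%.

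From 2 to 4 DAP the test called 4 members lower at 4 DAP, where 0.178% of all genes were, and none higher, where 0.0198% of all genes were. The count was unstable, and so was that of all genes. It was 23 with DESeq2 (3.72% of all genes lower) and 20 without 2 DAP replicate 1 (5.29%). It was 0 without 2 DAP replicate 4, where no gene at all was called, and 0 without any 1 of the 3 libraries at 4 DAP, where at most 0.00495% of all genes were called lower. The 4 were Migut.D02154, Migut.L01772, Migut.I00910 and Migut.G00156. With library number as a covariate no member was called, and 0.00494% of all genes were called lower. The members' median log2 fold change from 2 to 4 DAP was then -0.24, against -0.57 without the covariate. This comparison shares its 4 DAP libraries with that of 4 and 6 DAP.

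Genes of cell division and chromatin were among the members lowest at 4 DAP. Of the keyword list for cell cycle and chromatin, 4 of 53 genes tested were members (7.55%, against 1.46% of the 4521 genes tested that have an entry in the tables). Migut.D02154, most like a histone H4 gene, read 160, 147, 139, 200 and 454 normalized CPM in ovules and 47.5, 99.6, 80.3 and 111 at 2 DAP. It then read 15.6, 17.9 and 11.4 at 4 DAP, 92.9, 97.9, 87.4 and 79.1 at 6 DAP and 268, 193, 313 and 332 at 8 DAP. Every 4 DAP library was below every other library. The 2 to 4 DAP call was lost without 2 DAP replicate 2 or 4 or any 1 library of 4 DAP (adjusted p = 0.019 to 0.0564). The log2 fold change was -2.50 ± 0.40 from 2 to 4 DAP (adjusted p = 0.0058) and 2.58 ± 0.40 from 4 to 6 DAP (adjusted p = 0.000172, kept under every setting run), and 0.33 ± 0.31 between ovules and 8 DAP (adjusted p = 0.4).

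The other 3 of this list carried out related tasks. Migut.D02117 (HTA6, a histone H2A) read 37.2, 35.7 and 25.3 at 4 DAP and 158, 132, 150 and 114 at 6 DAP (log2 fold change 2.08 ± 0.41, adjusted p = 0.0014, and 0.0156 without 4 DAP replicate 3). Migut.G00709, most like CDKB1;2, a plant-specific kinase of the G2 to M step of the cell cycle, read 62.6, 33.8, 37.3, 77.0 and 96.0 in ovules, 9.23, 10.4 and 6.96 at 4 DAP and 36.9, 33.5, 54.3 and 50.3 at 8 DAP. Migut.N01557, most like CENH3, the histone H3 variant of centromeres, averaged 15.3 CPM in ovules, 1.93 at 4 DAP and 7.61 at 8 DAP. For these kinase and centromere genes the change from 4 to 6 DAP did not pass the test (log2 fold change 0.89 ± 0.32 and 1.2 ± 0.45, adjusted p = 0.0708 and 0.0865).

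Further members of this kind, picked out after their values were seen, were most like PCNA2, the sliding clamp of DNA replication, HMGA, a chromatin protein, and DUT1, which keeps uracil out of DNA. Migut.D02143 (PCNA2) read 43.2, 43.4 and 33.8 at 4 DAP and 189, 154, 192 and 147 at 6 DAP (log2 fold change 2.09 ± 0.36, adjusted p = 0.00044). Migut.K00900 (HMGA) had a log2 fold change of 1.05 ± 0.34 (adjusted p = 0.0473) and Migut.N00497 (DUT1) one of 1.63 ± 0.48 (adjusted p = 0.028), both short of 0.01. Over the whole keyword list, 12 of 53 genes were called higher and 1 lower at 6 than at 4 DAP, with a median log2 fold change of 0.44. Between ovules and 8 DAP 6 of the 53 were called in each direction.

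Of the short keyword list for green tissue, 2 of 11 genes tested were members (18.2%, against 1.46% of the genes tested with an entry), both low in rank. Migut.C00904 (PETE1, plastocyanin, an electron carrier of photosynthesis) read 24.9, 20.9, 29.5, 71.6 and 59.2 normalized CPM in ovules and 41.7, 56.9, 52.5 and 75.6 at 8 DAP. Migut.H00214 (RBCS1A, the small subunit of Rubisco) read 11.3, 3.53, 10.3, 26.7 and 33.1 in ovules and 8.58, 13.5, 12.5 and 9.12 at 8 DAP. Ovule libraries of both spread widely, with replicates 4 and 5 high and replicate 2 low. Neither passed the test between ovules and 8 DAP (adjusted p = 0.307 and 0.27).

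More plastid homologues were again picked out after their values were seen. Migut.M01803 (THI1, an enzyme of thiamine synthesis) was among the most abundant members, at 1440, 758, 769, 768 and 1010 in ovules, 222, 194 and 238 at 4 DAP and 967, 874, 1430 and 1430 at 8 DAP. Migut.B00177 (FBA2, an aldolase of the Calvin cycle) averaged 1000 CPM in ovules, 377 at 6 DAP and 1100 at 8 DAP. Its 2 DAP libraries, at 183, 667, 1030 and 438 normalized CPM, reached into the ovule range. Migut.N00294 (PGR5, cyclic electron flow), Migut.N02365 (AGT1, photorespiration) and Migut.D00068 (GUN1, plastid to nucleus signalling) were the others, and none of the 7 was called between ovules and 8 DAP. The green tissue list summed to 1060 normalized CPM in ovule replicates 4 and 5 and to 492 in replicate 2, and carry-over of green fruit tissue was not tested.

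**Figure D4:**
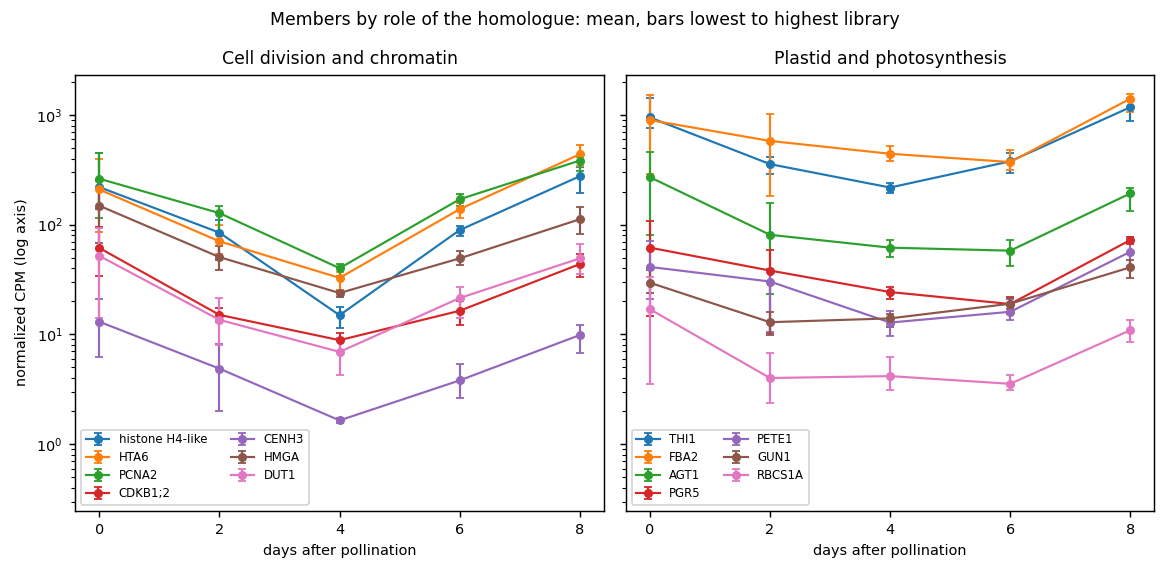
Mean normalized CPM (log axis) against age for 7 members with cell division or chromatin homologues (left) and 7 with plastid homologues (right), with bars from the lowest to the highest library. All 7 lines on the left are lowest at 4 DAP, while those on the right reach their lowest mean at 2, 4 or 6 DAP and have wide bars in ovules.

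Of 256 transcription factor homologues tested, 4 were members (1.56%, close to the 1.46% of all genes with an entry), and none of these was called between ovules and 8 DAP. Migut.A00430 (WRKY11, a factor of defence responses) was the highest of them, at 87.1, 50, 36.6, 39.9 and 55.1 normalized CPM in ovules, 12.3, 13.2 and 11.7 at 4 DAP and 55.0, 54.9, 71.0 and 72.6 at 8 DAP. Its ovule and 8 DAP libraries stood clear of the other ages. The mean CPM in ovules and at 8 DAP was 10.8 and 8.33 for Migut.G00610 (a basic helix-loop-helix protein), 18.6 and 12 for Migut.N01274 (GATA5) and 32.0 and 19.6 for Migut.M01116 (ERF9).

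The members also held regulators that no list caught, chosen after their values were seen. Migut.L01772, most like ZPR3, a small leucine zipper protein that inhibits class III homeodomain factors of leaf polarity and the shoot meristem, read 35.9, 35.2, 43.6, 103 and 106 normalized CPM in ovules and 1.7, 1.59 and 1.27 at 4 DAP. It read 14.6, 7.56, 11.2 and 8.28 at 6 DAP and 29.9, 41.2, 18.4 and 14.7 at 8 DAP. ZPR3 fell by 2.93 ± 0.53 on the log2 scale from 2 to 4 DAP (adjusted p = 0.00978) and rose by 2.76 ± 0.53 from 4 to 6 DAP (adjusted p = 0.00114, and 0.0114 without 4 DAP replicate 3). The earlier call was lost on leaving out any of 13 libraries (adjusted p = 0.0111 to 0.0733). Migut.D00643 (SCL3, gibberellin signalling), Migut.K00262 (COL5, a CONSTANS-like protein) and Migut.B01853 (PYL9, an abscisic acid receptor) averaged 33.2, 26.3 and 76.5 CPM in ovules and 25.4, 15.1 and 53.4 at 8 DAP.

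Kinase homologues gave 7 members of 159 tested (4.4%, against 1.46% of the genes tested with an entry). Migut.C00856 is most like CLV1, the receptor that limits the stem cell pool of the shoot meristem. It read 21.5, 13.8, 13.9, 16.5 and 18.4 normalized CPM in ovules, 1.44 to 3.04 at 2, 4 and 6 DAP and 4.2, 8.68, 11.7 and 13.8 at 8 DAP (log2 fold change -0.81 ± 0.29, adjusted p = 0.0256). Migut.C00794, a related receptor kinase, averaged 49.8 CPM in ovules and 18.7 at 8 DAP, and Migut.N01337, a kinase with an ACT-like domain, 24.7 and 10.5. Migut.K00160 (a phosphoinositide 4-kinase) and Migut.I00566 (MKK9, of a mitogen-activated cascade) were the others, beside the leucine-rich repeat and cell cycle kinases above. The fitted change was below 0 in all 7 and the call was made for Migut.B01134 alone, while over the list 18 genes were called higher at 8 DAP and 54 higher in ovules.

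The remaining lists gave fewer, and are to be read beside the 1.46% of genes tested with an entry that were members. Lipid homologues had 4 members of 155 tested, the enzymes above and the acyltransferases Migut.F01984 and Migut.J00202, whose ovule and 8 DAP means were 13.3 and 8.26 CPM and 69.8 and 48.8 CPM. Transport homologues had 4 of 154, defence 2 of 60, protein turnover 2 of 264 (the aspartyl protease and the F-box protein Migut.E00090), redox 1 of 198 (the dehydrogenase Migut.A00231) and flavonoid genes 1 of 27. Migut.A00231 was nearly silent at 2 DAP (0.155, 0.671, 0 and 0 normalized CPM) and rose from 4 to 6 DAP by 2.78 ± 0.69 on the log2 scale (adjusted p = 0.00868), a call lost without any 1 library of 4 DAP or without 6 DAP replicate 2, 3 or 4, ovule replicate 1 or 3 or 8 DAP replicate 1, 3 or 4 (adjusted p = 0.0105 to 0.0479). A count of 0 in these libraries allows up to 0.186 and 0.222 CPM, for counting error only.

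No member came from the lists for seed maturation and storage (64 tested), cell wall (142), cytochrome P450 and glycosyl or glutathione transferases (83), hormone (69) or heat shock (39). Of all genes tested with an entry 1.46% were members, so lists of these sizes would hold few at that share. The lists match words in a homologue's description, so a member can fall outside the list of its role, as the PDF1, SCL3 and PYL9 homologues did. Of the 64 maturation and storage genes 43 were called higher at 8 DAP and 13 higher in ovules. Malate synthase (Migut.I00493), an enzyme of the glyoxylate cycle that turns storage oil into sugar in seedlings, was a member, chosen here after its values were seen. It read 45.1, 33.0, 11.3, 44.4 and 38.1 normalized CPM in ovules, 0.619, 2.52 and 1.82 at 4 DAP and 15.1, 10.8, 26.6 and 22.9 at 8 DAP. One 2 DAP library, replicate 3, read 20.0 and overlapped both. Only 64 of the 150 members have a homologue in the tables, which cover 5068 of the 28140 genes, so the lists describe a minority of the members.

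Replicates of an age did not carry the members equally. At 8 DAP, replicates 3 and 4 were both above replicates 1 and 2 in 103 members (68.7%), against 23.8% of all genes tested. In CPM this held for 79 members (52.7%), against 14.6%. The summed normalized CPM of the members was 16700, 15300, 22800 and 22900 in replicates 1 to 4, and that of the seed maturation markers 3100, 968, 6350 and 6510. At 6 DAP, replicate 3 was the highest library in 89 members (59.3%), against 27.2% of all genes. The maturation markers summed to 149 there and to between 66 and 86.5 in the other 6 DAP libraries. Both sums were thus highest in replicates 3 and 4 at 8 DAP and in replicate 3 at 6 DAP. The other 6 DAP libraries did not keep this order. Replicate 2 had the lowest maturation sum (66) but a member sum of 4900, above replicates 1 (4590) and 4 (4200). The part of seed stage in the members' levels was not tested.

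In ovules, replicate 2 was the lowest library in 85 members (56.7%), against 23.2% of all genes tested, and replicate 5 the highest in 65 (43.3%), against 20.2%. The summed normalized CPM was 10800, 5980, 9200, 17600 and 18500 in replicates 1 to 5. The cell cycle and chromatin list summed to 4220 in replicate 2 and 11400 in replicate 5. The median SD of log2(normalized CPM + 0.5) among ovules was 0.70 for members and 0.56 for all genes tested, and at 4 DAP 0.23 and 0.17. At 2 DAP, replicate 1 was lowest in 84 members (56.0%, against 35.1% of all genes) but in CPM in 42 (28.0%, against 16.8%), where it was the highest in 53 (35.3%, against 60.0%). The sums of ovule replicate 2 and of 2 DAP replicates 2 and 3 (6870 and 8160) overlapped on the normalized scale and did not in CPM, where the lowest ovule library had 8950 and the highest 2 DAP library 5910.

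**Figure D5:**
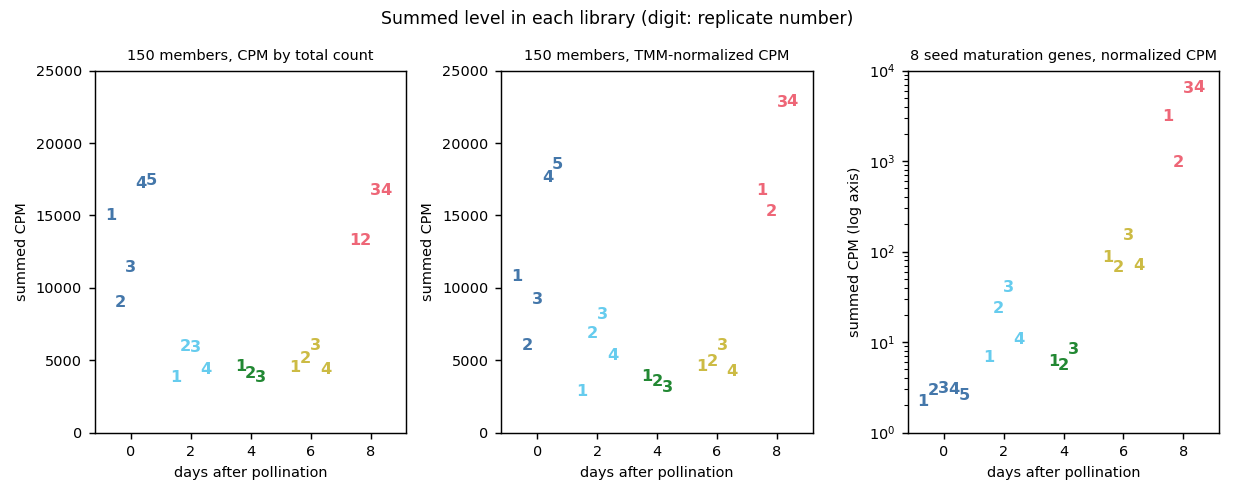
Summed level per library of the 150 members in CPM (left) and normalized CPM (middle), and of 8 seed maturation genes in normalized CPM (right, log axis), against age, with each digit the replicate number. Member sums return at 8 DAP to the ovule range or above it, 8 DAP replicates 3 and 4 are above 1 and 2 in all 3 panels, and the maturation genes are low in ovules.

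The members with the most uneven ovule values were Migut.B01001, Migut.I00198 and Migut.D01396, none with a homologue at hand. Migut.I00198, the most abundant member in ovules (1390 CPM on average), read 792, 100, 952, 2840 and 1840 normalized CPM there and 1100, 1420, 1530 and 1610 at 8 DAP. Migut.B01001 read 6.64, 7.58, 8.95, 162 and 60.9 in ovules and Migut.D01396 9.21, 5.79, 4.87, 94.0 and 29.6. Ovule replicates 4 and 5 thus set the ovule means of both, and their replicates 1 to 3 lay within the range of the 2, 4 and 6 DAP libraries. The most even were Migut.H00386 (5.24 to 6.42) and Migut.L01834 (9.85 to 12.3) with the leucine-rich repeat kinase above. Migut.H00386 was called higher at 8 DAP (log2 fold change 1.32 ± 0.27, adjusted p = 0.000399). That call was lost with library totals (adjusted p = 0.0408) and with the mother plant as a block (adjusted p = 0.0146).

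Members were spread over the genome by identifier, whose letter follows the linkage group in the gene models. Every letter from A to O had between 2 and 17 members, from 0.379% of the genes tested for O to 1.42% for G. Only the pair Migut.D01358 and Migut.D01359 had consecutive numbers. Migut.G00627 and Migut.G00629 were 2 numbers apart, and 5 further pairs were 2 to 4 numbers apart.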

How the data were processed

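The authors sequenced 20 strand-specific libraries. They mapped the reads to a pseudo-genome of each parent with STAR, retained uniquely placed proper pairs, and used featureCounts for counts per gene of the Phytozome v2.0 annotation. Versions of STAR and featureCounts are not given in the sources used here. The deposited counts are raw. Reads of close gene copies, such as histone genes, may have been lost by the unique mapping.

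CPM and TMM-normalized CPM were computed from the deposited counts. edgeR 4.0.16 (limma 3.58.1, R 4.3.3) fitted 1 coefficient per age over all 20 libraries. It tested 20242 genes (3 or more libraries above 1 CPM) by quasi-likelihood at a Benjamini-Hochberg adjusted p under 0.01. The fits were tested on simulated data. Alternatives were the likelihood ratio test, DESeq2 1.42.0, relative log expression scaling, no filter, an adjusted p of 0.05, blocks for replicate number or mother, library number, only the ages compared, and each library left out.

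Members and gene lists were chosen with earlier results of these data known. Text names the 12 members of largest ratio, up to 4 members per list, the 5 largest changes in each direction between ovules and 8 DAP without overlap, the 3 most and least even in ovules, and both edges of the threshold. Homologues come from the study's tables, in part. No sequences of the members were used here.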

Additional observations from a re-analysis of the deposited data

Results flagged for a closer look

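Of the 12 members with the largest ratio and the 10 with the largest changes between ovules and 8 DAP without overlap (18 genes in all), each group of 4 or 5 libraries was checked for a single library far from the rest by Dixon's criterion at 95%. Over 72 groups 9 were marked, where chance marks about 1 in 20, and the 3 libraries of 4 DAP were not checked. Values are normalized CPM.

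At 6 DAP, replicate 3 stood high in 4 members: Migut.G00629 (11.7, others 0.246 to 0.785), Migut.G00627 (46.7, others 0.903 to 3.05), Migut.M01490 (3.08, others 0.785 to 1.15) and Migut.D02452 (9.07, others 4.64 to 5.06). Replicate 4 was low in Migut.F00734 (0.174, others 1.76 to 1.97).

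In ovules, replicate 1 was high in Migut.G00296 (66, others 18 to 30.4) and replicate 5 in Migut.F00063 (81.2, others 23.1 to 38.3). At 8 DAP, replicate 2 was low in Migut.F00063 (140, others 223 to 232), and at 2 DAP replicate 3 was low in Migut.N00383 (1.99, others 6.63 to 7.21).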

How the results depend on the processing

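Of 6 members called higher in ovules, counts over settings were 10 at an adjusted p of 0.05, 16 with library totals (added after seeing the data), 2 with mothers as a block and 4 to 8 with single libraries left out. Of 25 called higher at 8 DAP they were 42, 12 and 24, 18 to 28 with single libraries left out, and 60 with library number (1 to 14 or 15 to 20) as a covariate. The share of all genes higher at 8 DAP moved as well, from 18.1% to 23.5% at 0.05, 10.8% with totals, 14.6% with mothers and 24.1% with the covariate. Calls between 2 and 4 DAP (4) became 21 at 0.05, 20 with the likelihood ratio test, 23 with DESeq2, 1 with library totals, 16 with mothers as a block, 0 with the covariate, 0 with only the ages compared and 0 to 20 with single libraries left out. Calls between 4 and 6 DAP (18) became 31 at 0.05, 44 with only the ages compared (when 14.4% of all genes were higher and 10.9% lower, against 5.22% and 2.12%) and 7 to 22 with single libraries left out. The rule kept 92 members on normalized CPM and 96 on libraries 1 to 14, and 129 to 145 with single libraries left out. The cause of these shifts was not tested. Counts for all genes between ovules and 8 DAP (7042) stayed within 1.5 times under all 30 settings run, between 5839 and 7600 with single libraries left out, and the 57 members without overlap became 41 on normalized CPM and 57 to 80 with single libraries left out.

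Deviations of same-numbered libraries had a median correlation of -0.034 over 36 pairs, 7 of them over 0.1. Those of libraries from the same mother plant had a median of 0.00666 over 28 pairs. The study took seeds of all ages from the same few mothers, and low correlations do not undo that sharing. With replicate number as a block, 4 members were called higher in ovules, 27 higher at 8 DAP, 2 between 2 and 4 DAP and 17 between 4 and 6 DAP. Of 300 alternative values for the 10 members with the largest changes among those without overlap of ovule and 8 DAP libraries, none changed direction and 12 lost the call, 7 of them for Migut.I00910, whose log2 fold change was -0.24 with mothers as a block (adjusted p = 0.468). Migut.A00217, outside these 10, kept its call under 20 of 29 settings. Counting depth set a floor of 0.181 to 0.395 CPM for a count of 0.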
